A study of Mus musculus with 12 samples.

Results

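This report describes 10 genes of the epithelium that lines the oviduct, followed on arrays of cultured mouse ovary. They are Foxj1, Dynlrb2, Tekt1, Rsph1, Tppp3, Ccdc39, Ak7, Dnah5 and Hydin, which mark ciliated cells, and Ovgp1, which marks secretory cells. They were chosen by name as genes that could show oviduct tissue left on the ovary, and each was followed on the probe set that the array annotation gives to that gene alone. Of the 10 genes, 8 had such a probe set, out of 22180 genes with a probe set of their own. Ovgp1 was annotated only on a probe set shared with Wdr77, and Ccdc39 only on one shared with Ttc14, so neither gene had a value of its own. The array carried 2 probe sets for Hydin, of which the brighter was used.

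The ovaries came from female C57BL/6 mice of 6 or 12 months. All were cultured for 24 h in DMEM with 10% FBS and antibiotics, with or without Korean red ginseng saponin fraction (KRGSF) at 10 mg/mL, so that every group had been through culture. Each age was thus present untreated and KRGSF-treated, which made 4 groups of 3 arrays. The sample labels name DMSO for the control and red ginseng extract (RGE) for the treatment, and the study's text calls the same groups untreated and KRGSF-treated. According to the methods, ovary pairs of each age were split at random between the treatments. The study's results add that samples were picked for high RNA purity, for the groups other than the 6-month-old KRGSF-treated one. Separate mice are not stated for the 3 arrays of any group. The p-values therefore reflect no more than array-to-array spread, which could be technical. Neither source says whether oviduct was trimmed from the ovary before culture. Total RNA was hybridized to Mouse Gene ST arrays, and every value below is a log2 intensity summarized with RMA unless it is named as a difference.

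The oviduct epithelium holds multiciliated cells, whose beating cilia move the oocyte, and secretory cells, which make the oviduct fluid. Foxj1 encodes the forkhead transcription factor that switches on the genes of motile cilia, acting together with RFX factors that bind the X-box motif. The core of a motile cilium is the axoneme, a ring of microtubule doublets around a central pair. Dynein arms drive it, radial spokes and nexin links regulate it, and tektins line its doublets. Most ovarian cells carry at most a single primary cilium, which lacks dynein arms. The ovarian surface epithelium is a simple layer that shares general epithelial genes such as Epcam, Krt8 and Krt18 with the oviduct.

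Promoter sequence was a feature that the choice of the genes had not used. RefSeq windows of the GRCm38.p6 build, which run from 250 bases before to 50 bases after each gene start, were matched by symbol for 7 of the 10 genes. Foxj1, Rsph1 and Tppp3 had no match. Only the letters GTTGCC, which are part of the X-box, were searched, on both strands, and the whole X-box was not sought. These letters stood in the windows of 3 genes, Hydin, Dynlrb2 and Tekt1. They stood in 12.5% of all 32851 windows. By gene, they occurred in 46.8% of the 109 other motile cilia genes with a window and in 14.1% of all genes. The forkhead letters GTAAACA stood in 1 window, that of Ak7, against 3.6% of all windows. By gene, they occurred in 7.3% of the 109 other motile cilia genes and in 4.1% of all genes. The stretches of 60 bases with these matches are given here for genes whose levels follow. They are written 5′ to 3′ on the strand of the gene, with the matched letters or their reverse complement in capitals.

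Hydin: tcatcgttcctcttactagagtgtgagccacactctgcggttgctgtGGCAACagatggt
Dynlrb2: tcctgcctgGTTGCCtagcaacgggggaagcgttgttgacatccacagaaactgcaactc
Tekt1: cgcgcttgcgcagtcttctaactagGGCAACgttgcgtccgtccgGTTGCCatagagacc
Ak7: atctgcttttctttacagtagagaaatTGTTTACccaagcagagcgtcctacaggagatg

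The Hydin stretch is chr8:110266917-110266976 on the plus strand, with the match 13 bases before the start of the gene. The Dynlrb2 stretch is chr8:116504955-116505014 on the plus strand, with the match 51 bases before the start. The Tekt1 stretch is chr11:72361883-72361942 on the minus strand and holds 2 matches, 15 and 35 bases before the start. The Ak7 stretch is chr12:105705824-105705883 on the plus strand, with the match 131 bases before the start. A match to these letters is a description of the sequence, and binding was not measured.

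Across the 12 arrays the median of all 33793 probe sets lay between 4.12 and 4.40. Replicate 2 of the 6-month-old untreated group and replicate 2 of the 12-month-old KRGSF-treated group stood apart from the other arrays, with mean correlations to the rest of 0.953 and 0.958 against a median of 0.971 over the 12 arrays. The same arrays held the highest and the lowest median over 1394 olfactory and vomeronasal receptor genes, at 3.14 and 2.36. Ovarian markers were read too, but no criterion was set for them, so the labelled tissue was not tested. The granulosa cell factor Foxl2 read from 4.31 to 5.15 and the zona pellucida gene Zp3 from 3.42 to 5.50. No detection call was used here, and a level depends on a probe set's own sequence, so levels were not compared between genes.

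Among the ciliated cell genes, the regulator Foxj1 read 3.76, 4.10 and 3.79 in 6-month-old untreated ovaries, 3.63, 4.25 and 3.88 in 6-month-old KRGSF-treated ovaries, 4.06, 4.14 and 3.10 in 12-month-old untreated ovaries and 3.51, 3.23 and 3.82 in 12-month-old KRGSF-treated ovaries. The lowest value came from 12-month-old untreated replicate 3 and the other low value from 12-month-old KRGSF-treated replicate 2, and the groups overlapped in each comparison. The group means were 3.89 ± 0.19, 3.92 ± 0.31, 3.77 ± 0.58 and 3.52 ± 0.30 in the same order (SD, n = 3).

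Dnah5 encodes a heavy chain of the outer dynein arm, and its loss leaves cilia immotile. It read 3.69, 3.44 and 3.91 in 6-month-old untreated ovaries, 3.46, 3.89 and 3.54 in 6-month-old KRGSF-treated ovaries, 3.53, 3.43 and 3.52 in 12-month-old untreated ovaries and 3.42, 3.28 and 3.65 in 12-month-old KRGSF-treated ovaries. The groups overlapped, and the tightest was the 12-month-old untreated group, at 3.49 ± 0.05 (SD, n = 3). Dynlrb2, a light chain of dynein, read 3.54, 3.98 and 3.58 in 6-month-old untreated ovaries, 3.76, 2.93 and 3.78 in 6-month-old KRGSF-treated ovaries, 3.53, 4.62 and 3.67 in 12-month-old untreated ovaries and 3.31, 3.22 and 3.59 in 12-month-old KRGSF-treated ovaries. Its value of 4.62, in 12-month-old untreated replicate 2, was 0.64 above the next highest array, and its groups overlapped in each comparison. On the same array Zp3 had its highest value, 5.50, and 15 oocyte genes averaged 0.43 above their own 12-array means. The part of the oocyte genes in the Dynlrb2 value was not tested.

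Rsph1 encodes a protein of the radial spoke head. It read 3.88, 4.21 and 3.76 in 6-month-old untreated ovaries, 3.98, 3.74 and 3.87 in 6-month-old KRGSF-treated ovaries, 3.89, 3.98 and 3.94 in 12-month-old untreated ovaries and 3.72, 3.81 and 3.96 in 12-month-old KRGSF-treated ovaries. All groups overlapped, and its SD within groups of 0.14 was the smallest among the 8 genes. Hydin encodes a protein of the central apparatus. It read 4.13, 4.56 and 4.39 in 6-month-old untreated ovaries, 3.95, 4.42 and 4.40 in 6-month-old KRGSF-treated ovaries, 4.43, 4.41 and 4.37 in 12-month-old untreated ovaries and 4.15, 4.0 and 4.41 in 12-month-old KRGSF-treated ovaries. The 12-month-old untreated arrays lay close together, the 6-month-old untreated arrays lay on both sides of them, and no KRGSF-treated array was above 4.42. The dimmer Hydin probe set ranged from 3.54 to 3.97.

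Tekt1 encodes a tektin, a filament protein inside the doublet microtubules. It read 4.06, 3.88 and 3.41 in 6-month-old untreated ovaries, 3.65, 3.27 and 3.93 in 6-month-old KRGSF-treated ovaries, 3.75, 3.26 and 4.07 in 12-month-old untreated ovaries and 3.47, 3.72 and 3.61 in 12-month-old KRGSF-treated ovaries. Its highest and lowest values both came from 12-month-old untreated ovaries, so this group spanned its whole range. Ak7, an adenylate kinase of motile cilia, read 3.76, 4.44 and 3.98 in 6-month-old untreated ovaries, 4.21, 4.05 and 4.38 in 6-month-old KRGSF-treated ovaries, 3.85, 4.34 and 4.15 in 12-month-old untreated ovaries and 4.20, 4.13 and 3.92 in 12-month-old KRGSF-treated ovaries. The 6-month-old untreated group held both its highest and its lowest value. Tppp3, which promotes tubulin polymerization, read 4.52, 4.11 and 4.18 in 6-month-old untreated ovaries, 4.65, 4.84 and 4.36 in 6-month-old KRGSF-treated ovaries, 4.52, 4.47 and 4.14 in 12-month-old untreated ovaries and 4.15, 4.48 and 4.47 in 12-month-old KRGSF-treated ovaries. The 6-month-old KRGSF-treated arrays were the highest group for Tppp3, and replicate 3 of that group lay below a 6-month-old untreated array.

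**Figure D1:**
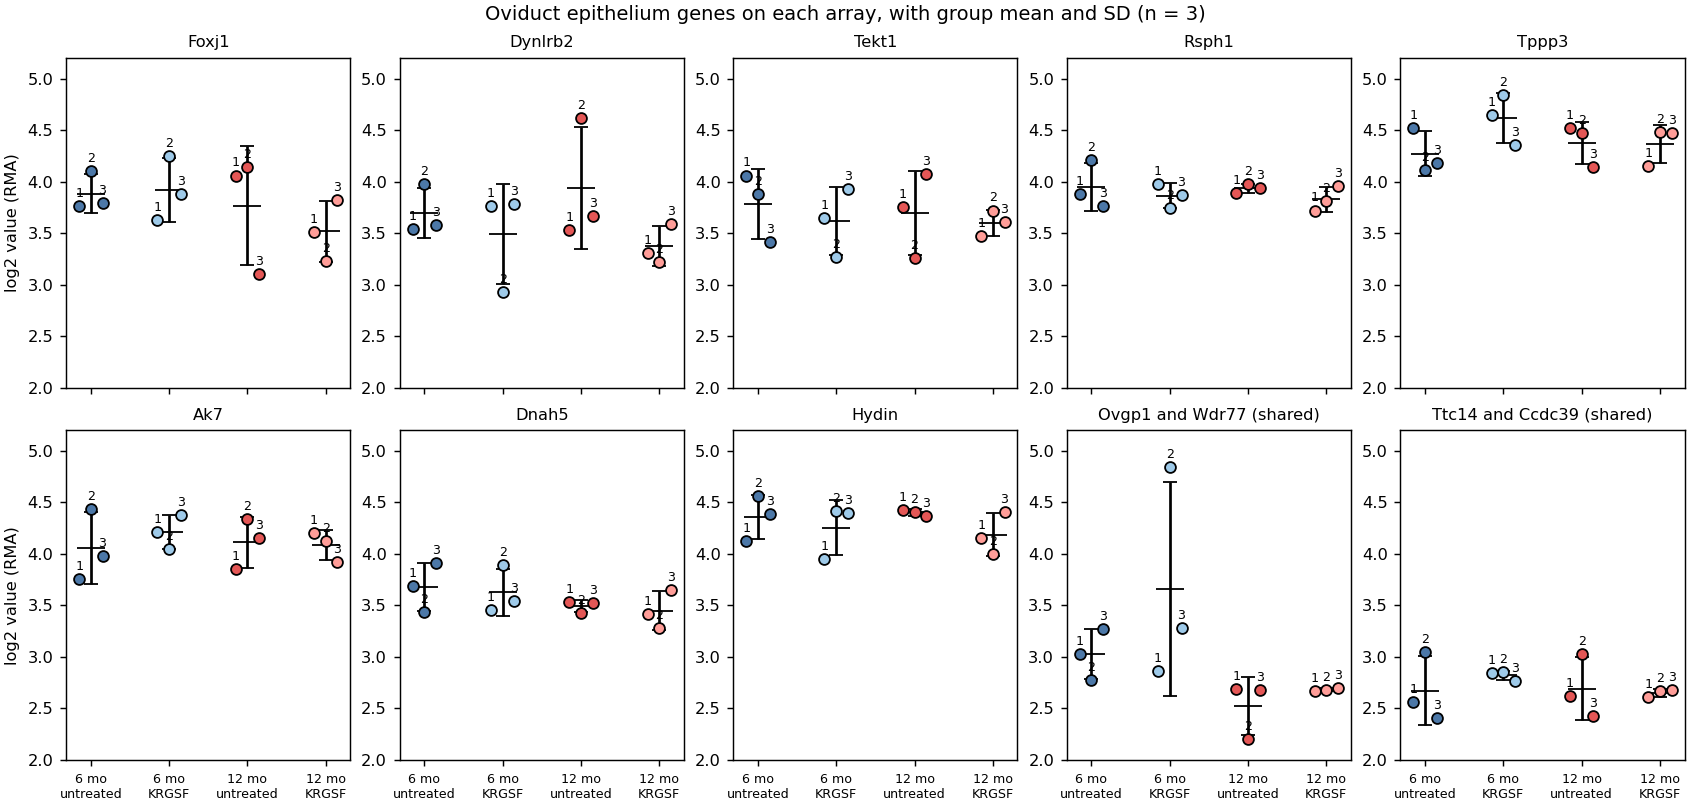
Log2 value of each gene on the 12 arrays, by group, with the replicate number above each point and the mean and SD (n = 3) as a bar. The last 2 panels show the probe sets that Ovgp1 and Ccdc39 share with another gene. Groups overlap in each of the 8 panels of single genes, and the highest point of the Ovgp1 panel is 6-month-old KRGSF-treated replicate 2, at 4.84.

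The probe set shared by Ovgp1, which encodes the oviductal glycoprotein of secretory cells, and Wdr77, a subunit of a protein arginine methyltransferase complex, read 3.03, 2.78 and 3.27 in 6-month-old untreated ovaries, 2.86, 4.84 and 3.28 in 6-month-old KRGSF-treated ovaries, 2.69, 2.20 and 2.68 in 12-month-old untreated ovaries and 2.67, 2.68 and 2.70 in 12-month-old KRGSF-treated ovaries. A single array, 6-month-old KRGSF-treated replicate 2, read 1.56 above the highest of the 11 others. All 6 arrays of 12 months, from 2.20 to 2.70, lay below all 6 arrays of 6 months, from 2.78 to 4.84. The ages thus did not overlap under either treatment. Within a single treatment, 7.18% of all probe sets were lower without overlap in untreated and 14.4% in KRGSF-treated ovaries. The share that did so under both treatments was not counted. Receptor gene medians by array ran from 2.36 to 3.14, and with age these genes had medians of -0.12 in untreated and -0.21 in KRGSF-treated ovaries. The part of a low signal level in the separation of the ages was not tested. The log2 fold change with age was -0.50 ± 0.35 (SE) in untreated ovaries (limma, adjusted p = 0.705) and -0.98 ± 0.35 (SE) in KRGSF-treated ovaries (limma, adjusted p = 0.161), and this fit was added after the values had been seen. Under the rule used for every call here, over 1.5-fold with an unadjusted p under 0.05, the probe set fell with age in KRGSF-treated ovaries. In that comparison 6.09% of all probe sets were called in either direction, 1038 higher and 1019 lower. The call of the shared probe set held under 3 other scalings, at -0.82, -0.81 and -0.77. It was lost without 6-month-old KRGSF-treated replicate 2, at -0.39. Signal of Ovgp1 and of Wdr77 cannot be told apart on this probe set. The probe set that Wdr77 has to itself read from 5.92 to 6.51 over all arrays. Ccdc39 encodes a coiled-coil protein that sets the repeat length of the axoneme. The probe set it shares with Ttc14 ranged from 2.41 to 3.05, and no array stood out, since its highest value lay 0.02 above the next.

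On that same array, 6-month-old KRGSF-treated replicate 2, the ciliated cell genes pointed in both directions. Foxj1 and Tppp3 had their highest values there, 4.25 and 4.84, and so did the secretory cell transcription factor Pax8, at 3.73, close to the 3.65 of 6-month-old untreated replicate 1. The 28 secretory and general epithelium genes described later averaged 0.05 below their own means there (-0.05), and Epcam read 7.03. Dynlrb2 had its lowest value there, 2.93, and Tekt1 read 3.27, near its lowest. Of the 8 genes, 4 lay above their own mean on that array, and their mean deviation was 0.00.

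The 8 genes did not share an array on which all were high. The number of genes above their own mean ran from 1 of 8, in 12-month-old KRGSF-treated replicate 1, to 6 of 8, in replicate 2 of both untreated groups. The highest values of the 8 genes fell on 5 arrays and the lowest on 8. Over the 28 pairs of genes, Pearson's r across the 12 arrays ran from -0.50, for Ak7 and Dnah5, to 0.66, for Dynlrb2 and Rsph1, with a median of 0.10. The pairs were above 0 in 16 cases and below it in 12. These correlations are a description, since the points share 4 groups and the differences in scale between arrays.

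**Figure D2:**
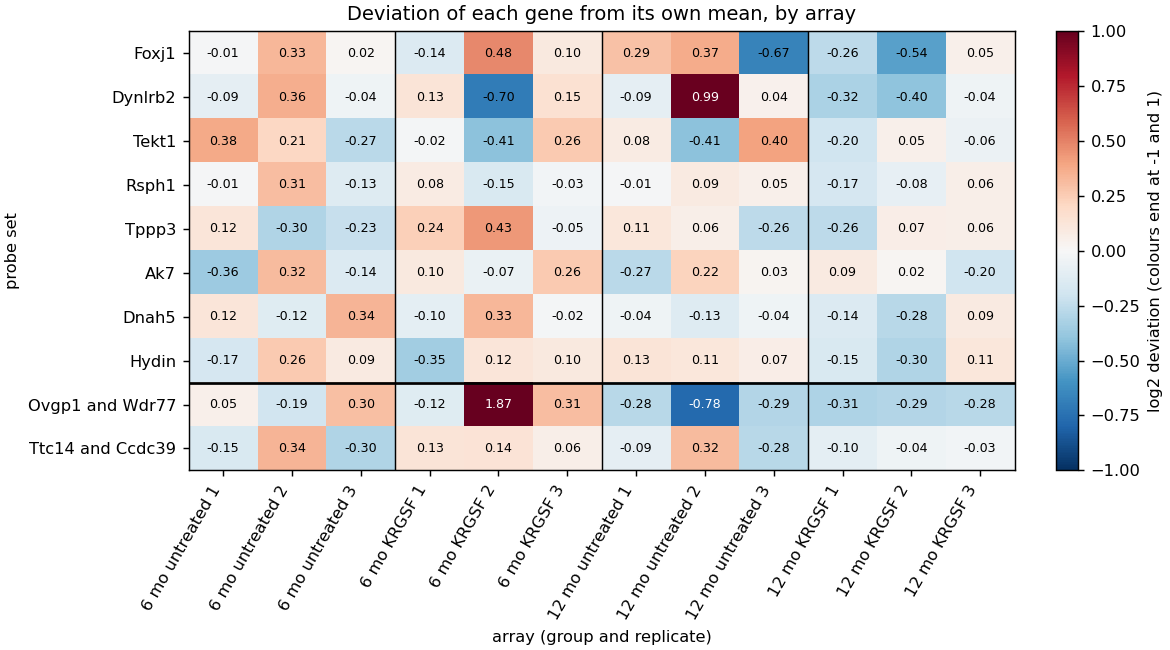
Deviation of each probe set from its own 12-array mean (log2, red above and blue below), with arrays as columns grouped by age and treatment; the 2 rows under the line are the shared probe sets. High and low cells are scattered over the arrays, and the 2 darkest red cells are Dynlrb2 in 12-month-old untreated replicate 2 and the Ovgp1 and Wdr77 probe set in 6-month-old KRGSF-treated replicate 2.

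The first comparison asked whether the oviduct epithelium genes changed with age in untreated ovaries. None of the 8 genes differed between untreated ovaries of 12 and of 6 months by over 1.5-fold with an unadjusted p under 0.05, against 1.93% of all probe sets. No gene separated the groups without overlap, against 6.23% of probe sets that were higher and 7.18% that were lower without overlap. Of the 8 genes, 4 were higher and 4 lower, with a median log2 fold change of 0.02 beside -0.02 over all probe sets. The values ran from -0.19 for Dnah5 to 0.24 for Dynlrb2. No gene had an unadjusted p under 0.05 at any fold, against 8.05% of probe sets, and the adjusted p in limma ran from 0.764 to 0.986. The 95% confidence intervals of all 8 genes lay within 2-fold, and those of 6 genes within 1.5-fold. The 12-array means of the 8 genes ran from 3.56 to 4.41, beside a median of 4.28 over the means of all probe sets. A filter on dim probe sets kept 2 of the 8 genes. Whether dim signal narrows the intervals given here and below was not tested.

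The same question in KRGSF-treated ovaries gave lower mean values at 12 months for all 8 genes as the values were deposited, with a median of -0.12 and none called, against 6.09% of all probe sets. This direction turned with the scaling of the arrays: 5 of the 8 genes were higher after quantile normalization (median 0.03), 6 after cyclic loess (0.04) and 6 against the receptor genes (0.09). No gene had an unadjusted p under 0.05 at any fold, against 20.1% of probe sets. None separated the groups, against 13.3% of probe sets higher and 14.4% lower without overlap. As deposited, the median of all probe sets was -0.08 and 20387 of 33793 were lower. The largest difference among the 8 genes was that of Foxj1, at -0.40 ± 0.26 (SE; limma, adjusted p = 0.386). Its 95% confidence interval ran from -0.94 to 0.15.

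KRGSF at 6 months gave 3 genes higher and 5 lower, none of them called, against 1.38% of all probe sets. An unadjusted p under 0.05 was found for none of them at any fold, against 5.22% of probe sets. No gene separated treated from untreated arrays, against 4.48% of probe sets higher and 4.94% lower without overlap. The median of the 8 genes was -0.07, beside -0.01 over all probe sets, and the sign of that median changed to 0.02 without 6-month-old untreated replicate 2 and to 0.05 without 6-month-old KRGSF-treated replicate 1. Tppp3 had the largest difference, 0.34 ± 0.18 (SE), with a 95% confidence interval from -0.04 to 0.73 (limma, adjusted p = 0.909). Dynlrb2, at -0.21, was the lowest.

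KRGSF at 12 months gave lower mean values for all 8 genes as deposited, with a median of -0.10 and none called, against 2.44% of all probe sets. Here too the direction turned with the scaling: 5 of the 8 genes were higher after quantile normalization (median 0.02), 5 after cyclic loess (0.03) and 6 against the receptor genes (0.12). As deposited, 1117 of the 1394 receptor genes were lower as well, with a median of -0.20, and the median of all probe sets was -0.06. No gene had an unadjusted p under 0.05, against 10.2% of probe sets, and none separated the groups, against 8.57% of probe sets higher and 10.2% lower without overlap. Dynlrb2 differed most, by -0.57 ± 0.28 (SE), with a 95% confidence interval from -1.16 to 0.02 (limma, adjusted p = 0.496). It passed the call rule without 12-month-old untreated replicate 1, at -0.77, or replicate 3, at -0.70, and its difference was -0.23 without replicate 2, the array with the value of 4.62. The differences of the other 7 genes ran from -0.25 for Foxj1 to -0.01 for Tppp3.

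**Figure D3:**
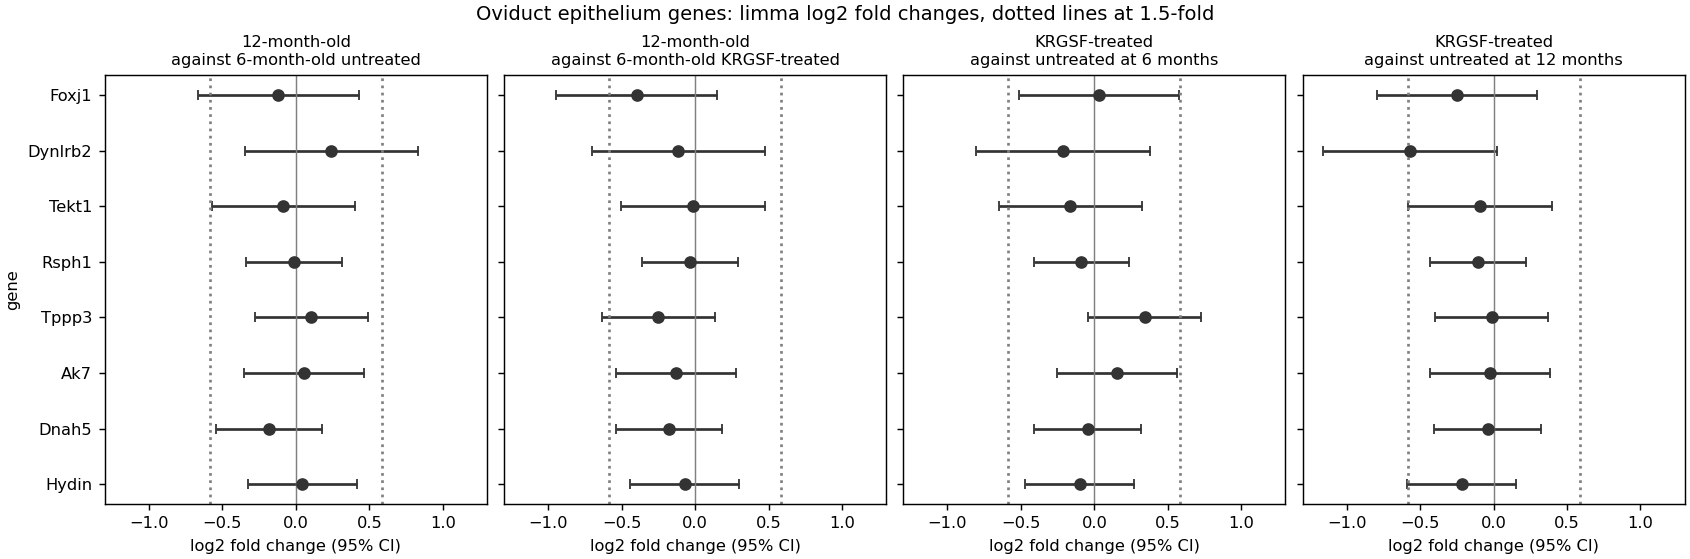
Log2 fold change of the 8 genes in 4 comparisons, with 95% confidence intervals from limma as bars; the dotted lines mark 1.5-fold. Every interval includes 0, and the one that comes closest to leaving it out is that of Dynlrb2 for KRGSF at 12 months, which ends at 0.02.

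The effect of KRGSF at 12 months was set against that at 6 months by the difference of both effects. It was called for none of the 8 genes, against 4.07% of all probe sets. Their values ran from -0.36 for Tppp3 to 0.07 for Tekt1, with a median of -0.15, and no unadjusted p was under 0.05, against 5.45% of probe sets (limma, adjusted p from 0.91 to 0.999). The confidence intervals of 6 genes lay within 2-fold and those of 2 within 1.5-fold. The comparisons share arrays, so their values stand side by side without being compared further. In bulk samples such as these, fewer cells of a type and less RNA per cell cannot be told apart.

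Of 122 other entries for genes of motile cilia measured on the arrays, few passed the call rule. Cfap70 is entered under its own name and as Ttc18, so the counts, shares and medians of this list hold a repeat of it. The list was made of 9 genes of transcription and multiciliation, 15 axonemal dyneins, 12 genes of dynein assembly and docking, 19 of nexin links and radial spokes, 14 of the central apparatus and 53 of microtubule inner proteins and other parts. With age in untreated ovaries 0 were called, against 1.93% of all probe sets, and 82 were lower, with a median of -0.09. With age in KRGSF-treated ovaries 1 rose and 4 fell, that is 4.10% of the list against 6.09% of all probe sets, and 98 were lower, with a median of -0.17. KRGSF at 6 months gave 1 gene that fell, 0.82% of the list against 1.38%, and a median of -0.04. KRGSF at 12 months gave 1 that rose and 1 that fell, 1.64% of the list against 2.44%, with 97 lower and a median of -0.12. These medians were nearer 0, between -0.03 and -0.01, after quantile normalization or cyclic loess, and between 0.04 and 0.11 against the receptor genes. Over the receptor genes themselves the deposited values gave medians of -0.12, -0.21, -0.11 and -0.20 in the same order.

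The gene of the list that rose with KRGSF at 12 months was Rsph3b, a radial spoke gene. It read 3.93, 4.79 and 4.09 in untreated and 5.12, 5.01 and 5.08 in KRGSF-treated ovaries of 12 months. The groups did not overlap, against 8.57% of all probe sets that were higher without overlap. The log2 fold change was 0.81 ± 0.23 (SE; limma, adjusted p = 0.433). The call held in each of 14 alternatives, which changed the scaling, the fit or the arrays and kept the 1.5-fold rule. None of the list genes described with such counts was tried under the other filter, probe set rule, 2-fold threshold or test. Rsph3b has a close copy in the mouse, Rsph3a, so its probe set may also take signal from that gene. Dnaaf6, a factor that assembles dynein arms in the cytoplasm, read 3.96, 3.62 and 3.99 in untreated and 3.46, 3.29 and 2.96 in KRGSF-treated ovaries of 12 months, without overlap. Of all probe sets, 10.2% were lower without overlap in this comparison. Dnaaf6 fell by 0.62 ± 0.17 (SE; limma, adjusted p = 0.433). This call was lost in 6 of 14 alternatives: under the quantile, loess and receptor scalings, and without 12-month-old untreated replicate 1 or 3 or KRGSF-treated replicate 3. Over the arrays left out in turn its value ran from -0.74 to -0.48.

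With age in KRGSF-treated ovaries, Ttc25, a docking factor of the outer dynein arm, Dnaaf6, the central apparatus gene Spag6 and Zbbx fell by 0.62, 0.62, 0.62 and 0.62 on the log2 scale, and Cfap69, also of the central apparatus, rose by 0.68. The adjusted p of these genes ran from 0.123 to 0.171 in limma. The 4 genes that fell were not called after quantile normalization, cyclic loess or the receptor reference, while Cfap69 was called under all 3. Array weights ended the call of Cfap69, and leaving out both arrays that stood apart ended those of Cfap69 and Ttc25. Leaving out arrays in turn ended the calls of Ttc25 (6-month-old KRGSF-treated replicate 3 or 12-month-old replicate 2 or 3), Dnaaf6 (replicate 3 of either age), Spag6 (6-month-old replicate 1 or 12-month-old replicate 3) and Cfap69 (6-month-old replicate 1 or 3 or 12-month-old replicate 2), but not that of Zbbx. The values then ran from -0.79 to -0.31, from -0.73 to -0.48, from -0.77 to -0.48 and from 0.37 to 0.95 in that order. Zbbx ran from -0.66 to -0.59, with KRGSF-treated means of 2.31 at 6 months and 1.68 at 12 months. Receptor gene medians ran from 2.63 to 2.88 and from 2.36 to 2.68 on the arrays of these groups. The part of a low signal level in the Zbbx call was not tested. With KRGSF at 6 months Dnah7a, an inner arm dynein with near-identical copies, fell by 0.84, from a mean of 2.92 to 2.08. Receptor gene medians ran from 2.79 to 3.14 on the untreated and from 2.63 to 2.88 on the KRGSF-treated arrays of 6 months. The part of a low signal level in the Dnah7a change was not tested. The call of Dnah7a was lost without 6-month-old untreated replicate 1 or 2 or without 6-month-old KRGSF-treated replicate 2. Its value ran from -1.09 to -0.62 over the arrays left out in turn. The difference of the KRGSF effects was called for 6 genes, 4.92% of the list against 4.07% of all probe sets. Of these Ttc25, at -0.99, was called in each of 20 alternatives that kept the 1.5-fold rule (limma, adjusted p = 0.862), and the others were Rsph3a, at 0.74, and Dnaaf6, Rsph14, Tmem212 and Zbbx, between -0.62 and -0.59, each of which lost its call in 5 or more of the 12 fits with an array left out.

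**Figure D4:**
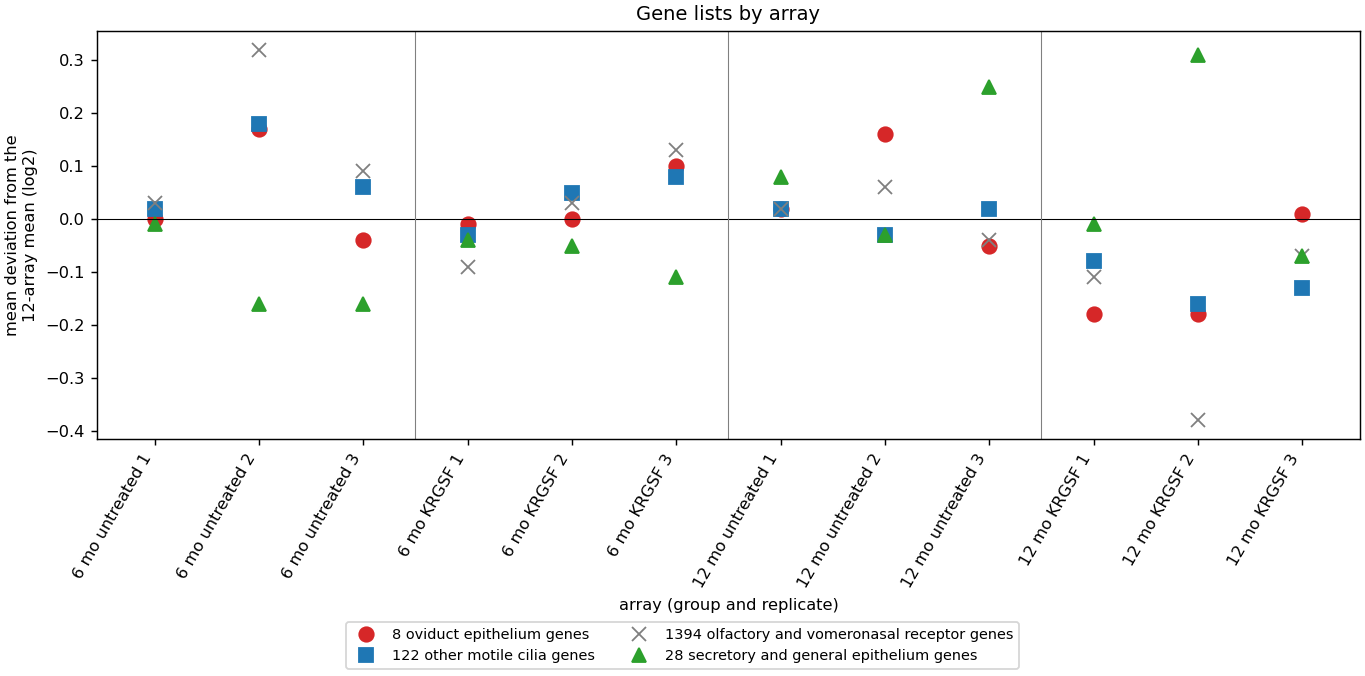
Mean deviation of 4 gene lists from their 12-array means (log2), by array. The 8 oviduct epithelium genes and the 122 other motile cilia entries (with a repeat of Cfap70) lie between -0.18 and 0.18. Both lists are high in 6-month-old untreated replicate 2 and low in 12-month-old KRGSF-treated replicate 2. The receptor genes have their highest and lowest values on these arrays, in that order. The epithelium list has its highest value on the second of these arrays.

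By array, the mean deviation of the 8 genes was highest in 6-month-old untreated replicate 2, at 0.17, and in 12-month-old untreated replicate 2, at 0.16. It was lowest in 12-month-old KRGSF-treated replicates 1 and 2, at -0.18 each. The spread of the 8-gene mean within groups was 0.10 (SD). On 6-month-old untreated replicate 2 the receptor genes lay 0.32 above and on 12-month-old KRGSF-treated replicate 2 they lay 0.38 below their own means, so both lists had extremes on these arrays. The part of the array scale in the values of the oviduct genes was not tested beyond the scalings given above. Without both of these arrays 0 of the 8 genes were called in any of the 5 comparisons, and the medians were 0.07 and -0.08 for age in untreated and KRGSF-treated ovaries and 0.02 and -0.10 for KRGSF at 6 and 12 months.

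Among genes that oviduct shares with other epithelia, some rose with age. Of 28 secretory and general epithelium genes, 20 were higher at 12 months in untreated ovaries, with a median of 0.30. The keratins Krt8 and Krt18 and the protease inhibitor Spint2 rose by 0.60, 0.71 and 0.66 (limma, adjusted p = 0.609 each), which is 10.7% of the list against 1.93% of all probe sets. The median stayed above 0 under each scaling, at 0.25, 0.19 and 0.44, and was 0.25 without the 2 arrays that stood apart. None of the 3 calls held after cyclic loess (0.42, 0.54 and 0.49) or without 12-month-old untreated replicate 3 (0.42, 0.58 and 0.55), and those of Krt8 and Spint2 were lost after quantile normalization too. Krt8 was also lost without 6-month-old untreated replicate 2 and without both arrays that stood apart. Of 12 genes of the ovarian surface epithelium, 10 were higher as well, with a median of 0.25 and none called. In the same comparison 8 theca and luteal cell genes had a median of -0.63 and 4 of them fell, 50% of the list against 1.93%, with log2 fold changes of -2.31 for Akr1c18, -1.55 for Sfrp4, -0.84 for Cyp11a1 and -0.82 for Hsd3b1 (limma, adjusted p from 0.609 to 0.619). Leaving out replicate 3 of either untreated group cut that count to 2, with list medians of -0.51. The part of the theca and luteal cells in the epithelium values was not tested. With age in KRGSF-treated ovaries 8 of the 12 surface epithelium genes were higher, with a median of 0.28. Of these, Lgr5, a receptor that amplifies Wnt signals, Lhx9, a LIM homeobox gene of the gonad, and Aldh1a2, which makes retinoic acid, rose by 0.70, 0.59 and 0.59, 25% of the list against 6.09% (limma, adjusted p = 0.183, 0.156 and 0.187). All 3 calls were lost after quantile normalization, cyclic loess or array weights, and when 12-month-old KRGSF-treated replicate 2 was left out (0.34, 0.32 and 0.26). In the 6-month-old KRGSF-treated group, leaving out replicate 1 ended the calls of Lgr5 and Lhx9, and leaving out replicate 3 those of Lgr5 and Aldh1a2. The difference between these lists and the ciliated cell genes was not tested.

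Epcam, an adhesion molecule of epithelial cells, read from 6.73 to 8.05, and its 2 highest values, 8.05 and 7.87, were those of 12-month-old KRGSF-treated replicate 2 and 12-month-old untreated replicate 3. On these arrays Foxj1 had its 2 lowest values, 3.23 and 3.10. Tekt1 had its highest value, 4.07, on the second, and 3 and 5 of the 8 genes lay above their own mean on these arrays. The mean deviation of the 28 epithelium genes was 0.31 and 0.25 there, that of the 8 ciliated cell genes -0.18 and -0.05, and that of 8 theca and luteal cell genes -0.97 and -0.59. Akr1c18, a luteal enzyme, had its lowest value, 3.69, on the first. The part of cell makeup in these values was not tested. Pax8 ranged from 2.72 to 3.73, the smooth muscle gene Myh11 from 5.36 to 5.91, the adipocyte gene Adipoq from 2.61 to 3.33 and the uterine gene Hoxa10 from 3.07 to 3.86.

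Wfdc2, a secreted protein of reproductive tract epithelia, read 4.47, 4.19 and 4.38 in 6-month-old untreated and 4.58, 4.73 and 5.01 in 6-month-old KRGSF-treated ovaries, against 4.86, 4.83 and 4.63 in 12-month-old untreated and 4.41, 4.12 and 4.32 in 12-month-old KRGSF-treated ovaries. Treated arrays were all above untreated ones at 6 months and all below them at 12 months. Of all probe sets, 4.48% were higher without overlap at 6 months and 10.2% lower at 12 months. The share that did both was not counted. For Wfdc2 the difference of the KRGSF effects was -0.92 ± 0.23 (SE; limma, adjusted p = 0.862). It passed the call rule in each of 20 alternatives that kept the 1.5-fold rule. Wfdc2 was the single gene called in that comparison among the 28 epithelium genes, which is 3.57% of them against 4.07% of all probe sets. In KRGSF-treated ovaries Spint2 rose with age by 0.71, and Pax2, a transcription factor of the oviduct lineage, fell by 0.62, together 7.14% of the list against 6.09%. Both calls were lost after quantile normalization, cyclic loess or without 12-month-old KRGSF-treated replicate 2 (0.55 and -0.58), and that of Pax2 also with the receptor reference or without 6-month-old KRGSF-treated replicate 1 or 3.

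Genes of the primary cilium and of intraflagellar transport, which builds both kinds of cilium, were followed as a separate list of 36. With age in KRGSF-treated ovaries 30 were higher, with a median of 0.24, and Ofd1 and Ift20 rose by 0.70 and 0.62. Ofd1 lost its call without 6-month-old KRGSF-treated replicate 2 (0.58), and Ift20 after quantile normalization or cyclic loess (0.41 and 0.38) and without 6-month-old KRGSF-treated replicate 3 or 12-month-old KRGSF-treated replicate 2 (0.49 and 0.56). The calls made 5.56% of the list against 6.09% of all probe sets. With KRGSF at 12 months 31 were higher and none was called, with a median of 0.21 as deposited, and of 0.20 and 0.22 after quantile normalization and cyclic loess. Without the 2 arrays that stood apart both medians remained above 0, at 0.15 and 0.14. Among paralogs of the ciliated cell genes that other cells use, Dynlrb1 ranged from 6.29 to 7.36 and Tppp from 3.51 to 4.37. Ak1 ranged from 4.81 to 5.66 and Dync1h1 from 6.21 to 7.38. The tubulin gene Tuba1a ranged from 4.41 to 5.45, and Chil1, the chitinase-like relative of Ovgp1, from 4.36 to 5.26. None of these 6 genes was called in any comparison.

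**Figure D5:**
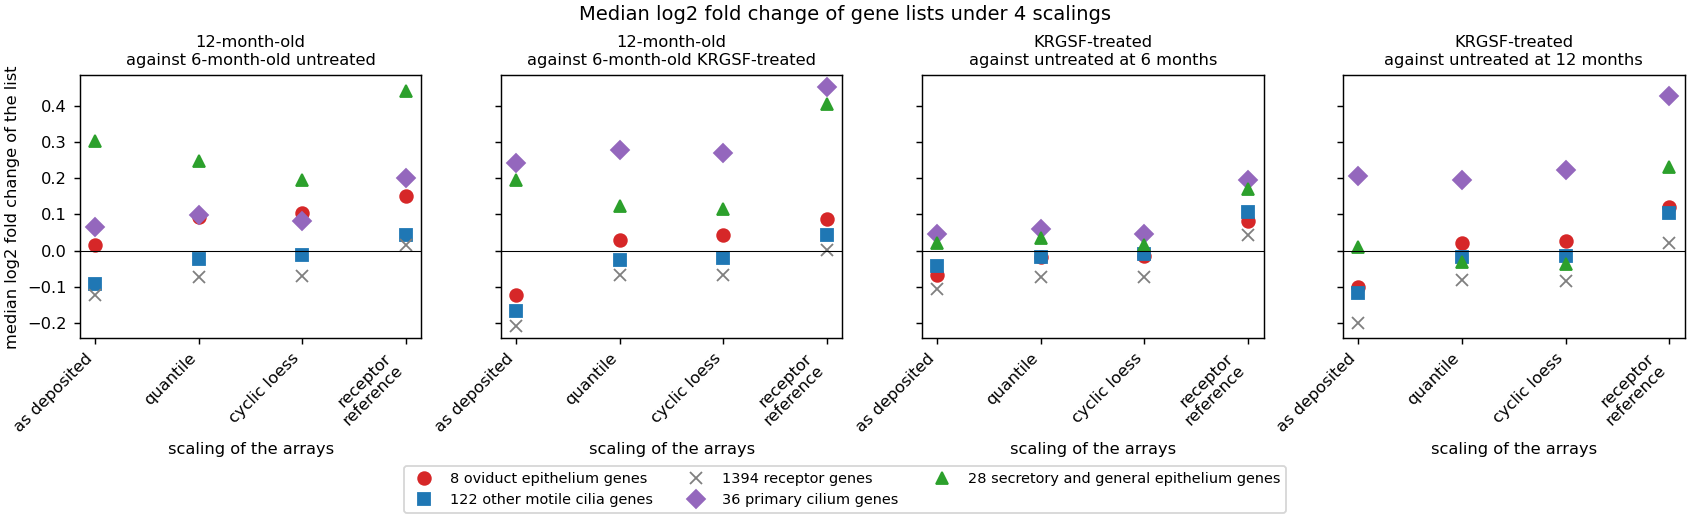
Median log2 fold change of 5 gene lists in 4 comparisons, under the deposited scale and 3 other scalings. The medians of the 8 oviduct epithelium genes and of the other motile cilia genes lie near 0 and change sign with the scaling in several panels, while those of the primary cilium genes stay above 0 in each.

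The genes whose levels most resembled the mean deviation of the 8 genes over the 12 arrays were ranked among 11191 genes by Pearson's r. The first 10 were Tmem229b-ps, Mm2pr, Tex19.1, Smim13, Rhbg, Grik4, Arl14epl, Pole, Bpifb9b and Ttc16, with r from 0.93 to 0.83. None of the first 50 belonged to the motile cilia lists. With 30 genes of those lists among the 11191 ranked, this absence cannot show that cilia genes varied differently. The oocyte gene Gdf9, with r = 0.80, was the single gene of any list among the first 50. Cfap65, a gene of cilia and flagella outside the lists, was the next after the first 10, with r = 0.82. It was picked out after the ranking was seen. The 30 motile cilia genes bright enough to be ranked had a median r of 0.20, beside -0.33 over all ranked genes, and the highest was that of Dnah2, an inner arm dynein, at 0.72. This ranking over 12 arrays of 4 groups is a description only.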

How the data were processed

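Log2 intensities of 33793 probe sets on 12 arrays were used as deposited; the authors summarized them with RMA in Affymetrix Expression Console 1.4, per the labels. The array annotation gave 23521 probe sets a single gene symbol, 1820 several and 8452 none. Genes were followed on the brightest probe set with a single symbol. Group means were fitted to all 12 arrays with limma 3.58.1 in R 4.3.3 (lmFit and eBayes; degrees of freedom 8 residual and 7.02 prior), with Benjamini-Hochberg adjustment over all probe sets. A call needed over 1.5-fold with an unadjusted p under 0.05. Shares of calls count both directions. The fit was tested on simulated data. The 10 genes, the gene lists and the tests were chosen with earlier results of these data known. Genes outside the 10 were named where they were called in a cilia or epithelium list (at most 5 per list and comparison, by size), as defining markers, as paralogs (listed with Tuba1a) or as the 10 most similar genes. Of the other cell type lists, calls are named for theca and luteal genes in 1 comparison. Alternatives changed the normalization, filter, test, weights, samples and probe set rule. The receptor reference, which takes each array's median over receptor genes from every value, was added after the data were seen. Correlations ran from -0.155 to 0.233 for arrays with the same replicate number and from -0.21 to 0.226 for those with different numbers. So few arrays cannot decide whether the numbers paired the samples, and the main fit left pairing out. The number of arrays limits the precision.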

Additional observations from a re-analysis of the deposited data

Results flagged for a closer look

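The probe set shared by Ovgp1 and Wdr77 lies outside the tests of single genes, and it read 4.84 in 6-month-old KRGSF-treated replicate 2, above the range of 2.20 to 3.27 in the 6 untreated arrays. The highest of the 11 other arrays was 3.28. Of 33793 probe sets, this one exceeded its other arrays by the most on that array, by 1.56, and the next by 1.29. Other arrays had such single high probe sets too, with largest excesses from 0.86 to 1.99. It was singled out after its values were seen, and its part in any group difference was not tested.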

How the results depend on the processing

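The number of the 8 genes called stayed at 0 in each comparison and alternative, except for KRGSF at 12 months, where it was 0 to 1 when arrays were left out in turn (Dynlrb2). Their median log2 fold change depended on the scaling. It was 0.152, 0.087, 0.082 and 0.121 with the receptor reference for age in untreated and KRGSF-treated ovaries and KRGSF at 6 and 12 months, and 0.03 and 0.02 (quantile) or 0.044 and 0.026 (cyclic loess) for age in KRGSF-treated ovaries and KRGSF at 12 months. The filter on dim probe sets kept 2 of the 8 genes and gave 0.121 for KRGSF at 6 months. Leaving out arrays in turn gave medians from -0.06 to 0.07, from -0.20 to -0.04, from -0.05 to 0.045 and from -0.16 to -0.07 in the same order, and from -0.25 to -0.05 for the difference of the KRGSF effects. The receptor reference moved the median of all probe sets to 0.11, 0.13, 0.14 and 0.17.

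Probe sets past the call rule numbered 651, 2057, 467, 825 and 1375 in the 5 comparisons. The methods' t-test gave 262, 1287, 166 and 416 for the first 4, with 0 after Benjamini-Hochberg in each. The filter on dim probe sets gave 276, 1362, 156, 362 and 580. The receptor reference gave 3790, 721 and 2127 for age in KRGSF-treated ovaries and KRGSF at 6 and 12 months, and leaving out both arrays that stood apart gave 1123 for the former. Leaving out arrays in turn gave 548 to 1535, 1109 to 3364, 442 to 1124, 591 to 1604 and 1109 to 2095; the lowest came without 6-month-old untreated replicate 2 for age in untreated ovaries and KRGSF at 6 months, and without 12-month-old KRGSF-treated replicate 2 in the others. At 2-fold, 27, 114, 31, 36 and 177 passed. Calls were split 191 higher to 460 lower, 1038 to 1019, 153 to 314, 338 to 487 and 503 to 872, and with the receptor reference 723 to 142, 3569 to 221, 591 to 130, 2060 to 67 and 615 to 469. Quantile normalization gave 256 to 391, 651 to 750, 225 to 287, 285 to 265 and 578 to 633, and cyclic loess 594 to 622 in the last.

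With the replicate number as a block, 655, 2062, 481, 827 and 1377 probe sets and 0 of the 8 genes were called. Same-numbered arrays correlated between -0.16 and 0.23, so this block does not stand for a known pairing. It changed no call among the 8 genes. The cause of the other changes was not tested.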
